A study of Mus musculus with 5 samples.

Results

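The immunity-related GTPases (IRGs) are interferon-inducible GTP-binding proteins of the mouse, and 5 of them were followed here: the regulatory members Irgm1, Irgm2 and Igtp (also named Irgm3), and the effector members Iigp1 (also named Irga6) and Ifi47 (also named Irgd). Every probe set that the platform annotation pairs with one of these symbols was taken, which gave 6 of 45037 probe sets that are not controls (2 for Iigp1 and 1 for each other gene) and 5 of 17074 named genes tested. None of the 6 carried several symbols. The RNA came from macrophages that had entered Matrigel, a gelled matrix placed under the skin. The hosts were adult Balb/c mice of 7 to 12 weeks with the SCID defect, which leaves hardly any T and B cells of their own, and all carried a transgenic T-cell receptor for the idiotype of the MOPC315 myeloma. The 3 tumoricidal arrays are from plugs with MOPC315 cells, and the 2 control arrays are from plugs with a MOPC315 variant that had lost the antigen, so both groups held myeloma cells and receptor-bearing T cells and differed in the antigen. CD11b+ cells were sorted on day 8, and the labels call the arrays of a group biological replicates without saying whether mice were pooled.

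IRG proteins are scarce in resting macrophages and are made when interferon-gamma reaches the cell. Effector IRGs load onto the membrane of vacuoles that hold parasites or bacteria and break it open. Regulatory IRGs, named IRGM, differ from them in an altered nucleotide-binding motif; they sit on the cell's own membranes, keep effectors inactive there, and so spare host organelles. The labels do not state that any mouse was infected, and the comparison asks how RNA for these GTPases differs between macrophages taken from plugs with the antigen of these T cells and from plugs without it.

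The DNA just before the start of each gene is shown because interferon signals reach it through 2 short motifs: the gamma-activated site (GAS), bound by STAT proteins, and the interferon-stimulated response element (ISRE), bound by IRF proteins. RefSeq promoter windows of build GRCm38.p6, running from 250 bases before to 50 after the annotated start, were given for 4 of the 5 members; Iigp1 had no entry. The searched letters were GAAANNGAAA for the ISRE core and TTCNNNGAA for GAS, on both strands. The stretches below hold the matches in capitals and run 5′ to 3′ along the gene.
Irgm1: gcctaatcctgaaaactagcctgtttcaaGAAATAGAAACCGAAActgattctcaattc
Irgm2: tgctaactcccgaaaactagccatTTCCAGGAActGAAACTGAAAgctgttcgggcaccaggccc
Igtp: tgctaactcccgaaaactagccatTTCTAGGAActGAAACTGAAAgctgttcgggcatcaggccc
Tgtp1: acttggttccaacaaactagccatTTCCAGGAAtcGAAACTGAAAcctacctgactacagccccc
Tgtp2: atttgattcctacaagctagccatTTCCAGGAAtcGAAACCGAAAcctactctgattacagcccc
The first is chr11:48871421-48871479 on the minus strand, the second chr11:58214878-58214942 and the third chr11:58199487-58199551, both on the plus strand. Tgtp1 and Tgtp2, the genes of the effector Irgb6, are relatives outside the 5 members, shown for comparison; their stretches are chr11:48992294-48992358 and chr11:49064253-49064317, both on the minus strand.

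Irgm2 and Igtp, which are neighbours in the RefSeq gene order, had the same 65 bases apart from 2. In both a GAS match is followed after 2 bases by an ISRE core match, beginning 75 bases before the start in Irgm2 and 45 in Igtp, and the same order of motifs appears in Tgtp1 and Tgtp2. Irgm1 had 2 overlapping ISRE core matches, beginning 30 and 24 bases before the start, and no GAS match in its window. Ifi47 had neither motif in its window. Gm12250, another family gene that was searched, did not have the order seen in Tgtp1 and Tgtp2. Its ISRE core matches began 91 and 46 bases before the start, on the opposite strand, and its GAS match 61 bases before it. An ISRE core match was in 3.44% of all 32851 promoter windows and a GAS match in 8.3%. The joined form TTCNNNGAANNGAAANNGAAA, written down after these stretches had been seen, was in 5 windows (0.0152%): those of Igtp, Irgm2, Tgtp1, Tgtp2 and Gm12185, a gene close to Irgm1. A match is a stretch of letters and not a measured binding site.

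**Figure D1:**
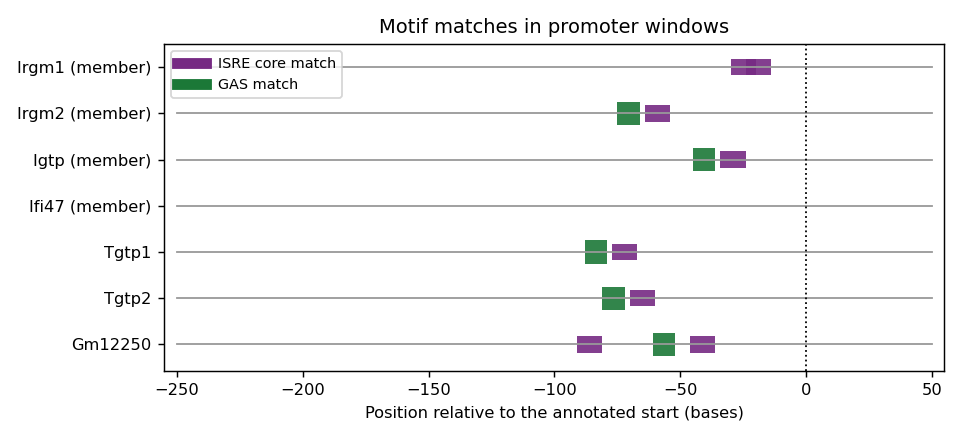
Positions of ISRE core matches (purple) and GAS matches (green) in promoter windows of 4 members and 3 other family genes, in bases relative to the annotated start (dotted line at 0; each grey line is a window from 250 bases before to 50 after it). In Irgm2, Igtp, Tgtp1 and Tgtp2 a GAS match lies just before an ISRE core match. In Gm12250 the GAS match lies between 2 separate ISRE core matches. Irgm1 has 2 overlapping ISRE core matches, and Ifi47 has none.

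All 5 IRG genes had higher signal in every tumoricidal array than in either control array, by factors of 4.85 to 6.91 between group means on the log2 scale. Signals are linear array intensities, scaled here so that the arrays have the same median, and are set against each other only within a probe set. As these are bulk samples, more expressing cells and more RNA per cell cannot be told apart.

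Of the regulatory members, Irgm1, which is needed for defence against mycobacteria and takes part in autophagy, had signals of 1757, 1474 and 1887 on the tumoricidal arrays (replicates 1, 2 and 3, an order kept below) against 339 and 294 on the control arrays (replicates 1 and 2). The lowest tumoricidal array was thus 4.35 times the highest control array. The log2 difference was 2.43 (SE 0.25, 95% interval 1.81 to 3.04, limma adjusted p = 0.0660), a factor of 5.38. Irgm2, a Golgi-associated GTPase that restrains inflammatory caspases, had 946, 837 and 691 against 138 and 142.5. Its control arrays were within 1.03 times of each other and its groups were far apart, at 825 ± 128 (SD, n = 3) against 140.2 ± 3.22 (SD, n = 2). The log2 difference of Irgm2 was 2.54 (SE 0.25, 95% interval 1.92 to 3.17, limma adjusted p = 0.0622). Igtp, a GTPase of the endoplasmic reticulum required for resistance to Toxoplasma, had 2818, 2100.2 and 2737 against 381 and 397. Tumoricidal replicate 2 was the lowest of its 3 and still 5.30 times the higher control array. The log2 difference of Igtp was 2.70 (SE 0.25, 95% interval 2.07 to 3.33, limma adjusted p = 0.0577), a factor of 6.51.

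Of the effector members, Iigp1, which coats and disrupts the vacuole of Toxoplasma, was measured by 2 probe sets. The one with the higher mean, used for the gene, had 6101, 4738 and 5877 against 694 and 926. Here too replicate 2 was the lowest tumoricidal array, and no array of a group reached the other group. The log2 difference was 2.79 (SE 0.27, 95% interval 2.12 to 3.45, limma adjusted p = 0.0603). The second Iigp1 probe set had 2007, 1746 and 2432 against 190 and 254, a factor of 9.31, or 3.22 on the log2 scale (SE 0.28, limma adjusted p = 0.0528). It exceeded the first by 0.43 on the log2 scale, so the probe sets share a direction but differ in size. Ifi47, a less studied effector, had 3691, 2863 and 3255 against 728 and 617. At 3269.6 ± 414 (SD, n = 3) against 673 ± 78.1 (SD, n = 2) it had the smallest log2 difference of the 5 genes, 2.28 (SE 0.25, 95% interval 1.66 to 2.90, limma adjusted p = 0.0739).

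**Figure D2:**
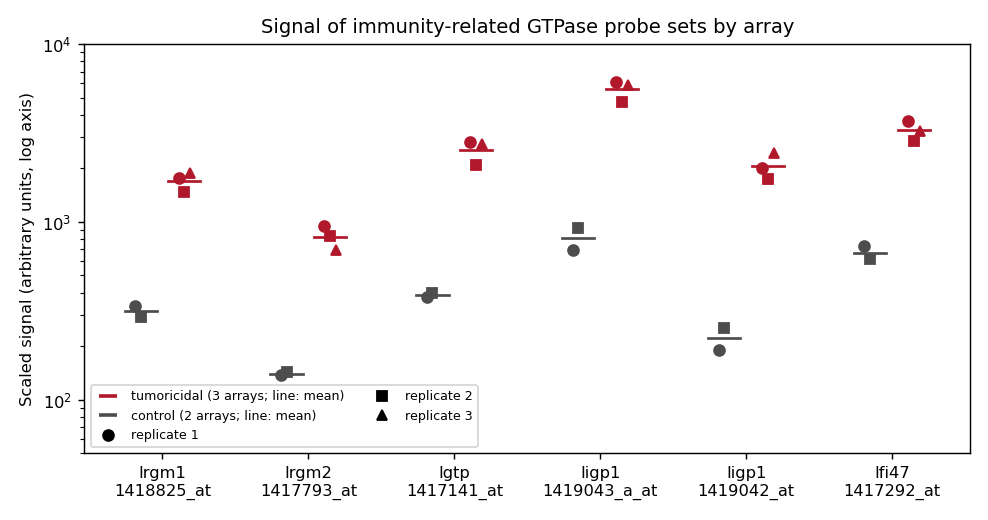
Scaled signal (arbitrary units, log axis) of the 6 probe sets of the IRG genes on each array, with tumoricidal arrays in red, control arrays in grey, marker shape for the replicate number and a line at each group mean. The groups do not overlap at any probe set; the smallest gap is that of Ifi47, whose lowest tumoricidal array is 3.93 times its highest control array.

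None of the 6 probe sets passed limma's adjusted p under 0.05 over the 41053 probe sets tested, where 0.0341% were called higher in tumoricidal macrophages. At an unadjusted limma p under 0.05 all 6 were higher, beside 4.92% of probe sets. In all 6 every tumoricidal array exceeded both controls, which held for 13.3% of probe sets. Ordered by log2 difference, the 6 stood at ranks 42 and 72 (Iigp1), 81 (Igtp), 98 (Irgm2), 124 (Irgm1) and 150 (Ifi47). The median over the 5 genes was 2.54, beside 0.13 over the 17074 named genes tested. These genes were chosen with such results known, so no test was made of the group.

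In the main setting the adjusted p-values lie just past the threshold, and the call turns with the test's settings. All 6 probe sets passed when limma's prior variance was allowed to follow signal level (adjusted p from 0.0113 to 0.0248), when only probe sets above the median were kept (0.00239 to 0.00802) and with log2(signal + 16) in place of the floor (0.0157 to 0.0201). With quantile normalization both Iigp1 probe sets passed, with the deposited scaling the second Iigp1 probe set passed, and with any single array left out none passed. With the replicate number as a block none of the 6 passed (limma adjusted p = 0.908 for each). Nor did any pass with a floor at the 10th percentile (0.155 to 0.170) or without the filter (0.0726 to 0.0778). The log2 differences themselves were positive under all 16 alternatives, between 1.96 (Ifi47 with quantile normalization) and 3.43 (the second Iigp1 probe set without control replicate 2). The lower floor, the changes of filter and the variance trend could not alter these differences, as no array of the 6 probe sets was at the floor.

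**Figure D3:**
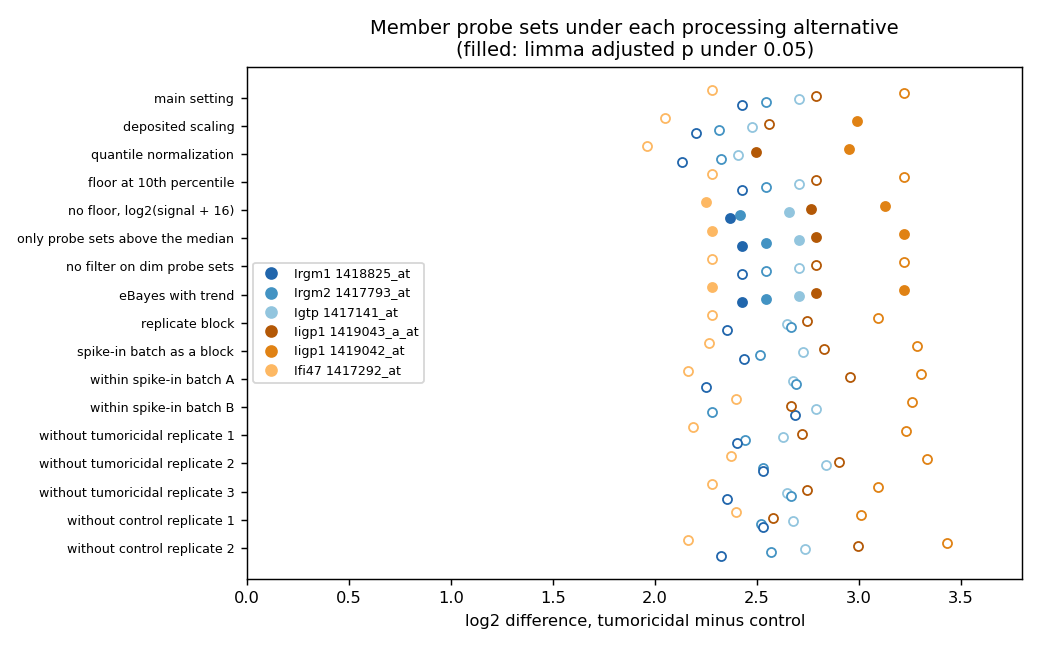
Log2 difference (tumoricidal minus control) of the 6 IRG probe sets under the main setting and 16 alternatives, 1 row each, with colour for the probe set and filled circles where limma's adjusted p was under 0.05. Differences lie between 1.96 and 3.43 in every row, and the 6 circles are all filled in 3 rows.

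The regulatory members lay between the 2 effectors, with Iigp1 above and Ifi47 below their mean. The mean log2 difference was 2.56 for Irgm1, Irgm2 and Igtp and 2.53 for Iigp1 and Ifi47, so the class means differed by 0.02. Within each array, relative to the control mean, the regulatory mean minus the effector mean was 0.00234, 0.0831 and -0.0108 on the tumoricidal arrays and 0.0615 and -0.0615 on the control arrays. The tumoricidal values lie within or just beyond the range of the control values, and the SD between replicates of this quantity was 0.0652. Rescaling of whole arrays cannot move it by construction, and with quantile normalization it was 0.06. It depends on which effector stands for the class: it was -0.23 against Iigp1 alone and 0.28 against Ifi47 alone, and -0.0826 with the mean of both Iigp1 probe sets. That SD is of the contrast with both effectors, so it does not measure the spread of these versions. No test was made of a score over these genes.

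**Figure D4:**
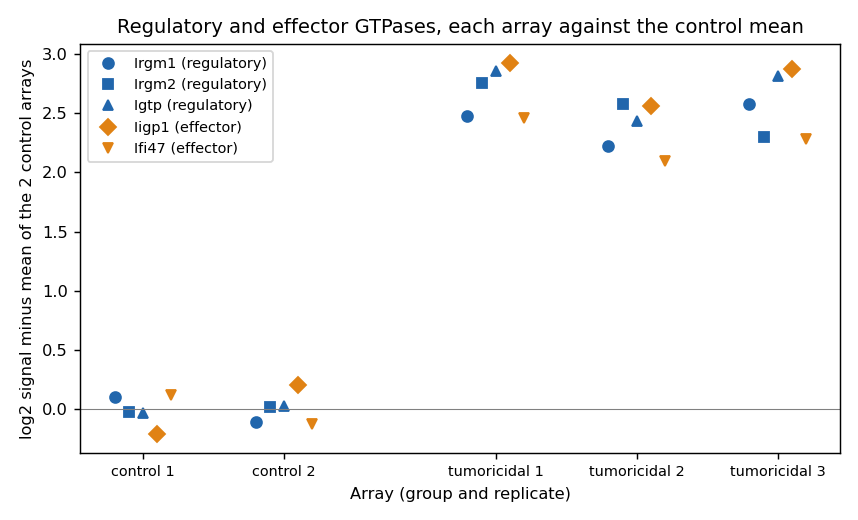
Log2 signal of each IRG gene on each array minus the mean of the 2 control arrays, with regulatory genes in blue and effector genes in orange and a marker per gene. Tumoricidal arrays lie between 2.09 (Ifi47, replicate 2) and 2.93 (Iigp1, replicate 1), control arrays between -0.21 and 0.21, and the colours interleave.

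Differences among single members were small beside their common shift. Each pair of genes was written with the gene of the larger log2 difference first, a direction taken from these data. Written so, 4 of the 10 pairs had a within-array log2 ratio that was higher in every tumoricidal array than in both controls. The pairs share genes, and the share of other gene pairs apart in this way was not computed. Iigp1 over Ifi47 was the largest, at 0.47, 0.47 and 0.59 on the tumoricidal arrays against -0.33 and 0.33 in the controls, relative to their mean. Igtp over Ifi47 was at 0.40, 0.34 and 0.54 against -0.15 and 0.15. Igtp over Irgm1 had a mean of 0.28. Irgm1 over Ifi47 had a mean of 0.15 and was apart only narrowly, with its lowest tumoricidal array at 0.0165 and its highest control at 0.0157. These ratios are a description without a test.

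The order of replicates differed among the members. Iigp1, Ifi47 and Igtp were highest in tumoricidal replicate 1 and lowest in replicate 2, Irgm1 was highest in replicate 3 and lowest in replicate 2, and Irgm2 was highest in replicate 1 and lowest in replicate 3. Of the controls, replicate 2 was the higher for Iigp1, Irgm2 and Igtp and replicate 1 for Ifi47 and Irgm1. The tumoricidal arrays of a gene lay within 1.28 (Irgm1) to 1.37 (Irgm2) times of each other and the control arrays within 1.03 (Irgm2) to 1.33 (Iigp1) times. Tumoricidal replicate 2 was also the array with most RNA of T-cell markers: their summed signal over 8 measured genes, among them Cd3e and Cd3g of the T-cell receptor complex, was 1314 there, 133 and 107 in the other 2 tumoricidal arrays and 200 and 105 in the controls. That array was the lowest tumoricidal array for 4 of the 5 IRG genes with the scaling used here and for 3 of 5 with the deposited scaling, where Ifi47 was lowest in replicate 3. Without it the IRG differences were 2.37 for Ifi47, 2.53 for Irgm1, 2.53 for Irgm2, 2.84 for Igtp and 2.90 for Iigp1. Replicate 2 was also the lowest tumoricidal array for the summed macrophage markers, at 28124 against 37259 and 41803. The same held for the summed neutrophil, plasma cell or myeloma, B-cell, fibroblast and endothelial markers. Inflammatory monocyte, dendritic cell and natural killer cell markers had their lowest tumoricidal sum in replicate 3. Whether the T-cell RNA has a part in the IRG signals was not tested.

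The other measured genes on the list of family genes used here lay above the 5 member genes or well below them. A probe set annotated to both Tgtp1 and Tgtp2, which it cannot tell apart, had 4542, 3231 and 3650.3 against 557 and 382. The log2 difference was 3.03 (SE 0.30, limma adjusted p = 0.0608). Gm4951, a predicted effector gene near Iigp1 in the RefSeq gene order, had 829, 559 and 692 against 58.3 and 106.8. It was higher by 3.12 on the log2 scale (SE 0.36, limma adjusted p = 0.0861). Both lay above the 5 member genes (2.28 to 2.79) and below the second Iigp1 probe set (3.22). With Gm4951 counted among the effectors the regulatory members were lower by comparison, at -0.17. Irgq, a distant relative, had 50.2, 49.4 and 66.4 against 38.2 and 73.1 on the probe set with the higher mean. The groups overlapped there and the log2 difference was 0.05 (SE 0.36). The other probe set of Irgq had 3 of 5 arrays at the floor. Irgc1, a relative known from testis, was at the floor on all 5 arrays and was not tested.

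The guanylate-binding proteins (GBPs), larger interferon-inducible GTPases that attack the same vacuoles together with the IRGs, had log2 differences from 2.44 to 4.62. Of 6 measured GBPs, 4 rose over all probe sets. The log2 increase was 4.62 for Gbp8, 4.46 for Gbp6, 3.96 for Gbp2b and 3.82 for Gbp2 (each limma adjusted p = 0.0481, beside 0.0527% of named genes called higher). These calls were lost, with 0 probe sets called in all, with the spike-in set described below as a block, with the replicate number as a block, with a floor at the 10th percentile and with any single array left out. Gbp3 (2.86) and Gbp7 (2.44) did not pass. Gbp7 lay below the IRG median, and Gbp3 lay above all 5 IRG genes but below the second Iigp1 probe set. The median over the GBPs was 3.89 against 2.54 over the IRG genes, and the difference between these groups was not tested.

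Genes of the interferon-gamma pathway, which controls IRG transcription, were spread more widely. None of 14 measured passed over all probe sets, and at an unadjusted limma p under 0.05 there were 7 higher and 0 lower, beside 6.12% and 2.79% of named genes. Socs1, the feedback inhibitor of the receptor's kinases, had the largest log2 difference, 3.53 (SE 0.33, limma adjusted p = 0.0577). The cytokine itself, Ifng, had 2.59 (SE 0.64), with 1 control array at the floor. Irf1, a transcription factor that binds ISRE sequences, had 2.49 (SE 0.45), close to the IRG members, and the receptor-bound kinase Jak2 had 1.09 (SE 0.25). The median of the list was 0.81.

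The machinery that delivers and marks IRG targets showed smaller values. The autophagy conjugation proteins attach LC3 and GABARAP to membranes and are needed for effector IRGs to reach vacuoles. The list used here also holds the LC3 and GABARAP genes themselves, Becn1 and Ulk1. None of its 14 measured genes passed at an adjusted or unadjusted limma p under 0.05, and their median was 0.30. At the unadjusted level 6.12% of named genes were higher and 2.79% lower, so none of 14 is near the share over all genes. Atg16l1 (0.51, SE 0.24), Atg7 (0.37, SE 0.25), Map1lc3b (0.36, SE 0.28) and Gabarap (0.32, SE 0.37) had the largest absolute differences. Among 9 measured genes for ubiquitin tagging of vacuoles, none passed over all probe sets and 4 were higher at an unadjusted limma p under 0.05, beside 6.12% of named genes. The ubiquitin ligase Rnf213 had 1.34 (SE 0.30), the ligase subunit Rnf31 1.12 (SE 0.33), the antibody receptor and ligase Trim21 1.09 (SE 0.23) and Rbck1, a partner of Rnf31, 0.84 (SE 0.28). The adaptor Sqstm1 stood at -0.0440 (SE 0.49). The IRG shift was thus larger than that of every measured member of these 2 lists, with no test of the difference.

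**Figure D5:**
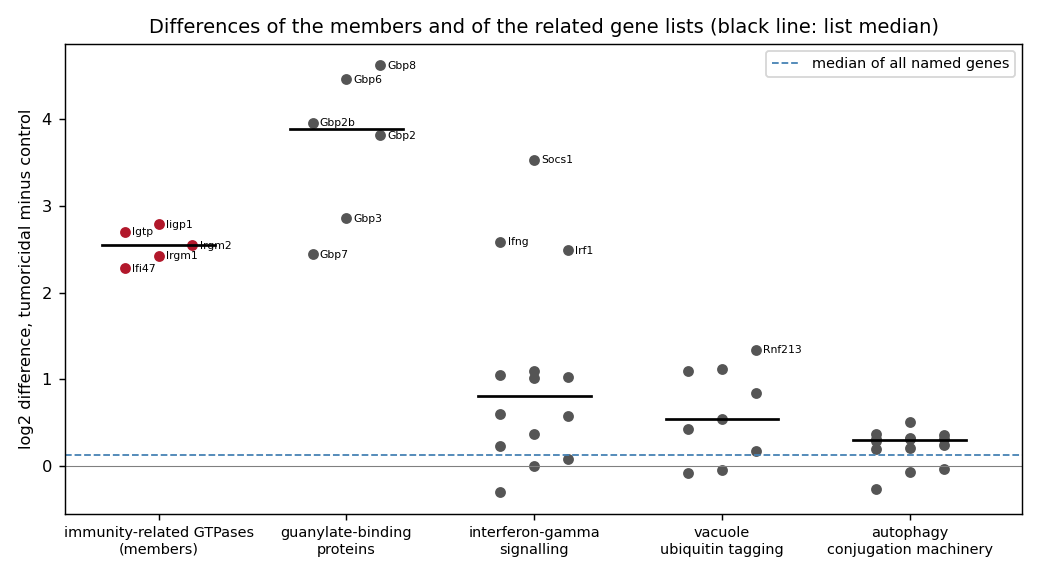
Log2 difference (tumoricidal minus control) of the 5 IRG genes (red) and of the measured genes of 4 related lists (grey), each point a gene, with a black line at the list median and a dashed line at the median of all 17074 named genes (0.13). The IRG genes lie between 2.28 and 2.79, most GBPs above them, and all genes of the autophagy conjugation list between -0.26 and 0.51.

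The IRG genes lie in groups on the chromosomes, and most measured genes around them had far smaller differences. Within 5 protein-coding genes on either side of a member in RefSeq order, 21 named genes that are not on the list of family genes used here were measured. None passed limma's adjusted threshold, and 3 were higher at an unadjusted limma p under 0.05, beside 6.12% of named genes. Their median log2 difference was 0.19, beside 0.13 over all named genes. Gm12185, which had the joined motif described above and whose relation to the family was not examined, had the largest difference of the 21, at 1.57 (SE 0.38, limma adjusted p = 0.365). Synpo, close to Iigp1, had 1.20 (SE 0.43), and Mrpl22, near Igtp, 0.58 (SE 0.23). The nearest measured gene beyond Irgm2, 4930438A08Rik, had -0.30 (SE 0.27), and Trim7, next to Irgm1, -0.26 (SE 0.34).

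Across the 5 arrays the genes with the profile most like the IRG mean were found by the root mean square distance between centred log2 profiles, over 17069 other named genes. The nearest were the peptide transporter Tap1 (distance 0.110), Rasgrp1 (0.121), the tryptophan-degrading enzyme Ido1 (0.140), Alpk2 (0.154), the transcription factor Batf2 (0.159), the beta-glucan receptor Clec7a (0.161), Gbp7 (0.169) and Itpka (0.192). The members' own distances from their mean ran from 0.0978 (Igtp) to 0.177 (Iigp1). Tap1 had 1462, 951 and 1187 against 221 and 208. Ido1 and Alpk2 were at the floor in both control arrays, so their differences of 2.36 and 2.73 are lower bounds, and Itpka was at the floor in control replicate 1. With 5 arrays, most of a profile is the difference between the groups.

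The sorted cells carried the markers of macrophages on every array. All 10 listed markers were measured above the floor, including Itgam (CD11b, means of 822 in tumoricidal and 674 in control arrays), Csf1r and Adgre1. At an unadjusted limma p under 0.05, 1 of the 10 was higher, beside 6.12% of named genes. Markers listed for other cell types also differed between the groups; whether their RNA came from other cells or from the macrophages cannot be told apart in bulk samples. Of 7 natural killer cell markers, Klra8 was at or near the floor on all arrays (6.20, 4.79 and 5.61 in tumoricidal arrays, 4.79 in both controls). The other 6 were higher at an unadjusted limma p under 0.05 (beside 6.12% of named genes). The 7 summed to 1139 to 3138 in tumoricidal and 237 to 560 in control arrays. Of 8 neutrophil markers, 4 were higher at that level (9716 to 11077 against 4331 to 7175), and of 8 plasma cell or myeloma markers, 4 were lower, beside 2.79% of named genes (3591 to 4882 against 5631 to 6287). Tnfrsf17, a plasma cell receptor, was at the floor in all 3 tumoricidal arrays, while Xbp1 (a log2 difference of 0.30) and Prdm1 (0.66) had higher signals in every tumoricidal array than in both controls, without passing the test. B-cell markers summed to 53.6 to 81.2 against 78.3 to 106.6. The part of such cells in the IRG signals was not tested. Spike-in controls split the arrays into a set with tumoricidal replicates 1 and 2 and control replicate 1 and a set with tumoricidal replicate 3 and control replicate 2. Within the first set the IRG differences were 2.25 (Irgm1), 2.69 (Irgm2), 2.68 (Igtp), 2.95 (Iigp1) and 2.16 (Ifi47), and within the second 2.68, 2.28, 2.79, 2.67 and 2.40. The order of Irgm1 and Irgm2 thus differs between the sets. With the set as a block the differences ran from 2.26 (Ifi47) to 2.83 (Iigp1) and none of the 6 probe sets passed (limma adjusted p from 0.145 to 0.177).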

How the data were processed

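Per the labels' protocols, biotinylated cRNA was made from 6 µg of Trizol-extracted total RNA by the Affymetrix protocol. The authors deposited signal intensities on a linear scale, 1 value per probe set and array. Neither the software nor the probe summary nor the scaling is stated in the sources used here. The values show a global scaling, as each array's mean without 2% at either end was 100.0, while array medians ranged from 15.4 to 22.6. Each array was therefore brought to the median of the array medians. After the 64 control probe sets had been dropped, the pooled 25th percentile (4.79) served as a floor before taking log2. The 3984 probe sets with all arrays at this floor were left out. limma (lmFit, eBayes, no covariate, two-sided, Benjamini-Hochberg over 41053 probe sets) compared 3 tumoricidal with 2 control arrays. On simulated data with independent errors, only the size and sign of planted differences were required to be recovered. The simulated arrays had no spike-in sets and no limit was placed on false calls, so the adjusted p-values were not checked in this way. Each gene is represented by the probe set that has its symbol alone and the highest mean log2. Symbols came from the platform annotation and matched RefSeq (GRCm38.p6) by Entrez identifier for all 5 members. The members and lists were chosen with earlier results of these data known. Named genes are all members and family genes, up to 4 per related list by absolute difference, up to 2 per marker list by level, and the 8 nearest profiles; others were picked after their values were seen. Alternatives covered scaling, floor, filter, variance trend, blocks and single arrays left out. Arrays give no counts, and their number limits precision. Software: limma 3.58.1 in R 4.3.3; figures with matplotlib 3.10.9 in Python 3.11.15.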

Additional observations from a re-analysis of the deposited data

How the results depend on the processing

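The median log2 difference over the 5 IRG genes stayed positive throughout and was 2.54 in the main setting, 2.32 with the deposited scaling, 2.32 with quantile normalization and 2.68 within the first spike-in set; single arrays left out gave 2.44 to 2.65. These scalings moved the median of all named genes from 0.13 to -0.0671 and 0.0156. The number of IRG probe sets called went from 0 to 1 with the deposited scaling, 2 with quantile normalization, and 6 each with log2(signal + 16), with only probe sets above the median and with a variance trend. Over all probe sets, 21 were called in the main setting, 71 with log2(signal + 16), 193 above the median, 62 without the filter, 65 with a trend, and 0 with a floor at the 10th percentile, with the spike-in set as a block or with any 1 array left out (0 to 0). Where 1 control array remains, it is assumed to vary like the tumoricidal arrays. Regulatory minus effector was 0.02, against -0.0826 with the mean of both Iigp1 probe sets, -0.17 with Gm4951 among the effectors, and, added after seeing the data, -0.14 with the Tgtp1 and Tgtp2 probe set, -0.23 with Iigp1 alone and 0.28 with Ifi47 alone; single arrays left out gave -0.0366 to 0.0864. Arrays with the same replicate number had deviations from group means correlated at 0.0235 (number 1) and -0.24 (number 2), and nothing in the labels pairs them. The fit with the replicate number as a block, in which tumoricidal replicate 3 has no partner, called 0 probe sets and gave an IRG median of 2.65.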
